A study of Mus musculus with 13 samples.

Results

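The oxidative phosphorylation genes were taken here as every probe whose platform annotation gave a single gene symbol starting with Nduf (complex I), Sdha to Sdhd (complex II), Uqcr (complex III), Cox and a digit (complex IV) or Atp5 (complex V). The choice rested on the symbols and used no measured value. It gave 98 of the 20205 probes on the arrays and 88 of the 9669 genes named by 1 symbol. Complex I held 40 of these genes, complex II 2, complex III 8, complex IV 22 and complex V 16. By their known roles 72 encode structural subunits, 14 encode assembly factors and the other two, Ndufa4l2 and Cox7a2l, are relatives of subunits. Another 11 probes carried such a symbol beside a second one and were left out.

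Complexes I to IV of the inner mitochondrial membrane pass electrons from NADH and succinate to oxygen and, except for complex II, pump protons. Complex V, the ATP synthase, uses the returning protons to make ATP. The subunits of an enzyme are needed in fixed proportion, and in many tissues their transcripts tend to vary together. Pluripotent stem cells rely heavily on glycolysis and still carry all 5 complexes. Subunits encoded in mitochondrial DNA and cytochrome c1 have other symbols and are not among the 88 genes.

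Each array compared RNA of a source named NT1 with RNA of a source named TBV in the other dye, on a 2-colour mouse DNA chip. The series title sets a Sall4 -/- genotype beside NT1, and Sall4 is a transcription factor of pluripotent cells. The labels give neither cell type, genotype nor treatment of a source, a line of mouse embryonic stem cells is known as TBV2, and as far as the labels tell there was 1 NT1 line and 1 TBV line. The 13 arrays made 4 source pairs: NT1p14 with TBVp13 (5 arrays), NT1p12 with TBVp12 (4 arrays), NT1 1 with TBV2 (2 arrays) and NT1p12 with TBVp13 (2 arrays), where the number after p is read as a passage. Cy5 labelled NT1 on 7 arrays and TBV on 6. Both sources of NT1p12 with TBVp13 also occur in other pairs, so it stands beside the tests on the other 3. Whether these pairs came from separate cultures is not stated, so the p-values measure the spread between these preparations.

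All values are log2 ratios of NT1 over TBV after each array was centred on its median. The log base and which dye is the numerator are stated in no source used here, so the direction of all signs together is unsettled. The direction of NT1p14 with TBVp13 against NT1p12 with TBVp12 is unsettled too: their pair values correlated at r = -0.50 over probes, and of the 10 combinations of same-orientation arrays 8 correlated below 0, with r between -0.36 and 0.24. Main results on the oxidative phosphorylation genes are therefore also given after turning the signs of NT1p14 with TBVp13. Many deposited values appear to have lost their decimals. Of 1171 member values 316 (27.0%) were whole numbers, against 19.3% over all probes, and 47 of the 98 member probes held none. An exact 0 may therefore stand for a small ratio of either sign. Arrays 4 and 5 of NT1p14 with TBVp13 had the widest spread over probes, with SDs of 1.00 and 1.14, against 0.34 to 0.81 on the other 11 arrays.

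**Figure D1:**
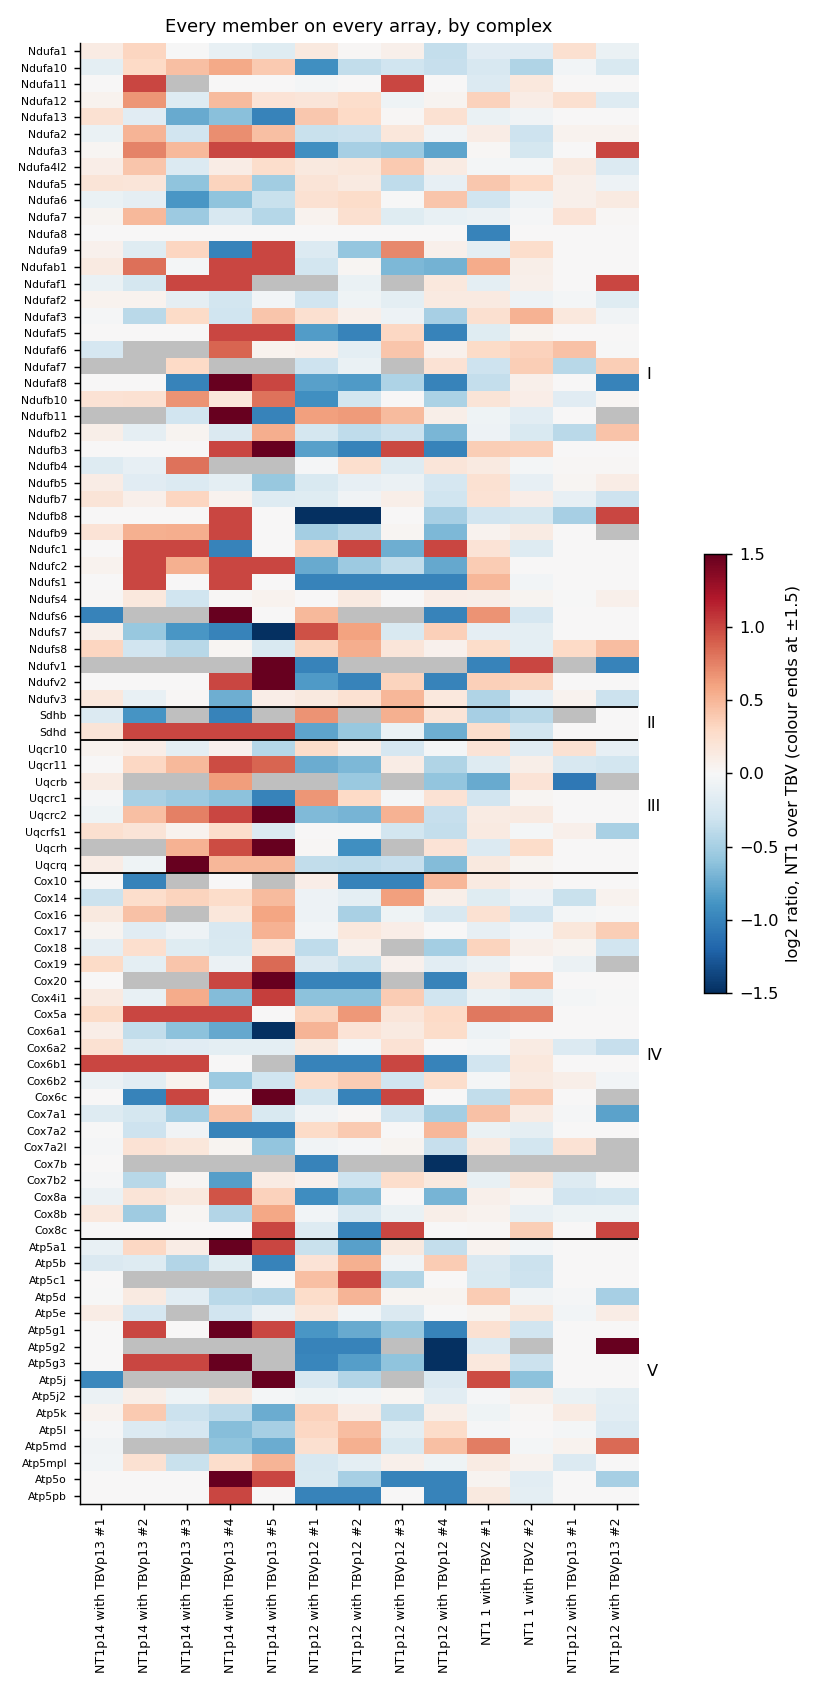
Log2 ratio of NT1 over TBV for each of the 88 genes (rows, by complex) on each of the 13 arrays (columns, by source pair), with red above 0, blue below 0, grey for no value and colour ending at ±1.5. In each complex some rows are mostly red under NT1p14 with TBVp13 and mostly blue under NT1p12 with TBVp12, and others are the reverse.

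The first comparison asked whether the genes differed between NT1 and TBV over the 3 pairs that share no named source. No oxidative phosphorylation gene passed the threshold: 0 of the 81 with a value in all 3 pairs, where 0.0% of all 7968 genes did (limma, adjusted p under 0.05). At an unadjusted p under 0.05 there was 1 of 81, where 1.14% of all genes were. The members' median of the 3-pair means was 0.01, from -0.26 for Ndufb8 to 0.67 for Ndufb11, against 0.00 over all genes. Both extremes rested on few values. Ndufb11 read only -0.28, 4 and -1 in NT1p14 with TBVp13. The Ndufb8 probe used read 0 on every array of that pair and -2, 0, 0 and 0 in NT1p12 with TBVp12. Of the members 42 had a mean above 0 and 39 below.

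Cox5a, a nuclear-encoded subunit of cytochrome c oxidase close to its catalytic core, was the gene at an unadjusted p under 0.05. Its arrays read 0.29, 1, 1, 1 and 0 in NT1p14 with TBVp13, and 0.33, 0.65, 0.18 and 0.30 in NT1p12 with TBVp12. NT1 1 with TBV2 gave 0.79 and 0.77, and both arrays of NT1p12 with TBVp13 read 0. No array lay below 0, and the 3 zeros are exact. The mean was 0.59 ± 0.21 (SD, n = 3 pairs; limma, adjusted p = 1.00). After turning NT1p14 with TBVp13 the mean was 0.17.

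Cox5a was one of 7 members above 0 in all 3 pairs, or 8.64% of 81, where 8.95% of all genes were. The others had smaller means and the directions of several depended on single settings. Ndufaf6, a complex I assembly factor, averaged 0.20 ± 0.11 and Ndufa12, an accessory subunit, 0.18 ± 0.06 (SD, n = 3 pairs). Ndufc1 averaged 0.22 ± 0.20, Ndufb4 0.15 ± 0.16, Ndufa9 0.07 ± 0.07 and Ndufs4 0.04 ± 0.03. Ndufa9 was above 0 by only 0.0004 in NT1p12 with TBVp12, and Ndufs4 by only 0.0001 in NT1p14 with TBVp13. In the fit on arrays described below, which left out a probe, Ndufs4 stood at -0.13 in NT1p14 with TBVp13. The probes of Ndufs4 disagreed, with 0.28, 0.19 and -0.47 in NT1p14 with TBVp13. Cox7a2l, which helps to join complexes III and IV, was the only member of 81 below 0 in all 3 pairs, at -0.08 ± 0.01, where 5.45% of all genes were. With the first of these pairs, NT1p14 with TBVp13, turned, 7 members were above 0 in all pairs and 18 below, against 1120 and 1293 of 7968 genes.

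The medians of complexes I, III and IV had opposite signs in the 2 largest pairs. In NT1p14 with TBVp13 the median was 0.17 for complex I (n = 38 genes), 0.55 for complex III (n = 7), 0.14 for complex IV (n = 20) and 0.00 for complex V (n = 15), against 0.02 over all genes. In NT1p12 with TBVp12 the medians were -0.05, -0.16, -0.07 and -0.08 for complexes I, III, IV and V, against 0.02 over all genes. NT1 1 with TBV2 gave 0.02, 0.03, -0.01 and 0.00 for the same complexes, against -0.01 over all genes. Complex II had a value in all 3 pairs for Sdhd alone, a membrane anchor of succinate dehydrogenase, at 0.87, -0.55 and -0.01. Among complexes with more than 1 gene, complex III had the highest median in NT1p14 with TBVp13, with 5 of 7 genes above 0, and with the signs of that pair turned it had the lowest, at -0.55. Medians in NT1p12 with TBVp13 were 0.00 for complexes I, II, III and V and -0.01 for complex IV, with 32 of its 79 member values exactly 0.

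**Figure D2:**
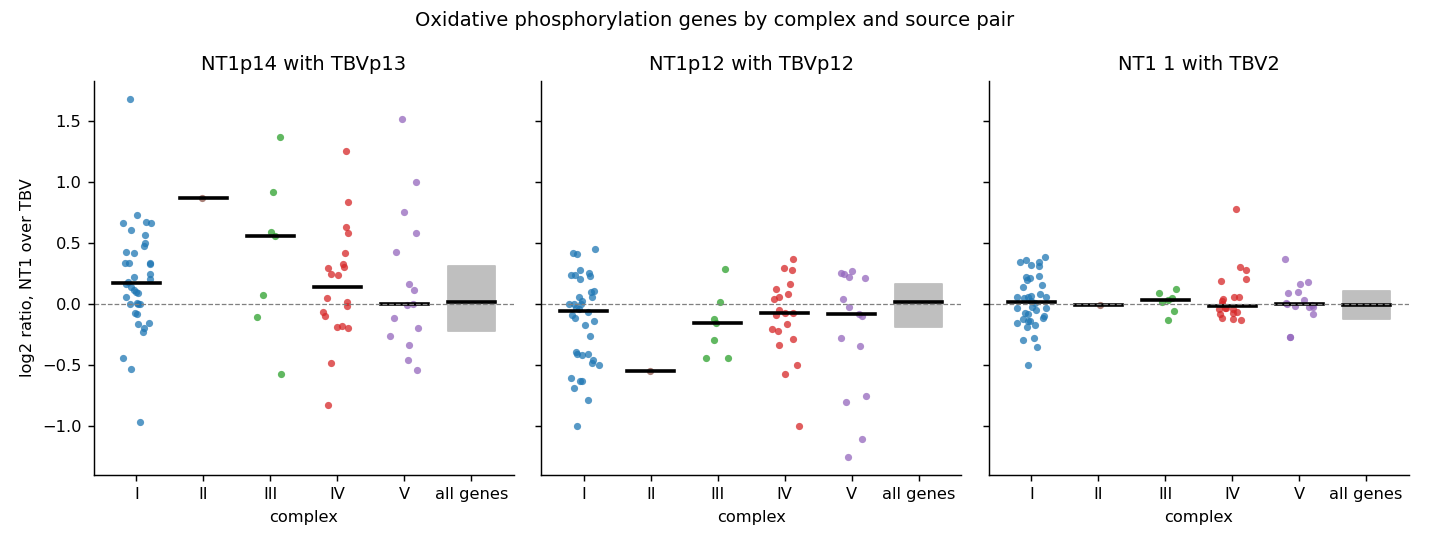
Log2 ratio of NT1 over TBV in the 3 source pairs that share no named source (panels) for each gene by complex (points), with the median as a black bar and the quartile range of all 7968 genes as a grey box. Complex III has the highest median among complexes with more than 1 gene in NT1p14 with TBVp13 (0.55), and the points of complexes I, III, IV and V lie closer together in NT1 1 with TBV2.

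Of the 81 genes 57 (70.4%) had opposite signs in the 2 largest pairs, a share close to the 70.8% of all genes. Over the 81 members the values of the 2 pairs correlated at r = -0.53, a description across genes, which are not independent. Across the same genes NT1p14 with TBVp13 and NT1 1 with TBV2 correlated at 0.20.

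**Figure D3:**
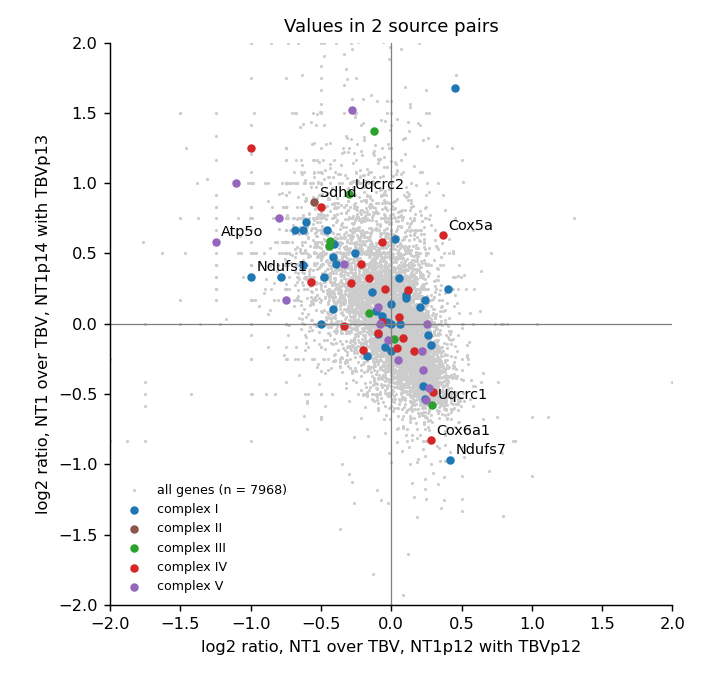
Log2 ratio of NT1 over TBV in NT1p14 with TBVp13 (vertical axis) against NT1p12 with TBVp12 (horizontal axis) for the 81 genes, coloured by complex, over all 7968 genes in grey, of which 68 lie outside the axes. Most members lie in the upper left and lower right fields, as do most genes, and Cox5a lies in the upper right, at 0.63 on the vertical and 0.37 on the horizontal axis.

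The second comparison took the arrays one by one, in a limma fit on all 13 arrays with a coefficient for each source pair and for the dye. It asked whether a gene's ratio differed beyond the spread between repeat hybridisations, and it compares RNA preparations, not lines or passages. Of the 88 members 61 had a probe with a value on every array and were tested, among 5767 genes. In NT1p14 with TBVp13 10 members were higher in NT1 (16.4%; 13.1% of all genes) and 8 were lower (13.1%; 12.8% of all genes). In NT1p12 with TBVp12 0 were higher (0.104% of all genes) and 1, Ndufs1, was lower (1.64%; 1.53% of all genes). At an unadjusted p under 0.05 these pairs gave 25 and 21 of 61 members, against 42.7% and 19.4% of all genes. NT1 1 with TBV2 and NT1p12 with TBVp13 gave 0 members each, where 0.0173% and 0.0% of all genes were called, with 3 members (4.92%; 4.51% of all genes) and 2 members (3.28%; 3.38% of all genes) at an unadjusted p under 0.05. With the arrays scaled to equal spread NT1p12 with TBVp13 gave 10 of 61. Whole numbers made up 40.4% and 40.3% of all values on its 2 arrays. For scaled or left-out arrays the share of all genes is not given here, so those counts are not read as a trait of the members. The count of 18 in NT1p14 with TBVp13 fell to 3 without its array 4, to 1 without its array 5 and to 2 with the arrays scaled to equal spread. In NT1p12 with TBVp12 the count was 0 without its array 1, 2 or 4, 7 without its array 3, and 6 and 8 without array 1 or 4 of NT1p14 with TBVp13.

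Between the pairs NT1p14 with TBVp13 (the first) and NT1p12 with TBVp12 (the second) the ratio differed for 27 of the 61 genes. It was higher in the first pair for 18 (29.5%; 16.5% of all genes) and lower for 9 (14.8%; 15.7% of all genes). The arrays of the first pair lay all above those of the second for 10 of 61 members (16.4%; 7.84% of all genes) and all below for 5 (8.2%; 6.64% of all genes), and 13 of these 15 genes were among the 27. After turning the signs of NT1p14 with TBVp13, 0 of the 61 members were called (0.64% of all genes), so the difference stands only if the labelled direction of both pairs holds. The number of calls was 14, 16 and 13 without array 1, 2 or 4 of NT1p12 with TBVp12. Centred on cytosolic ribosomal protein genes, it was 3 higher and 31 lower, since with that centring the median difference of all genes was -0.89, against 0.03 with array medians. The members' median lay above that of all genes by 0.19 with array medians and by 0.18 with ribosomal protein genes. Centring shifts every probe of an array by the same amount, so this gap could hardly change and the second value is no separate support. Of the 27, 8 rested on probes without a whole number (Atp5d, Atp5l, Cox4i1, Cox8a, Ndufa10, Ndufa6, Ndufb10 and Uqcr11), and all 8 stayed past the threshold when such probes alone were fitted. That fit used the same values of these 8 genes and gave the same differences, so it is no separate support. Genes below that are not core subunits, tissue isoforms or extremes of their complex were chosen after their values were seen. Those extremes include the highest and the lowest of this same difference.

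**Figure D4:**
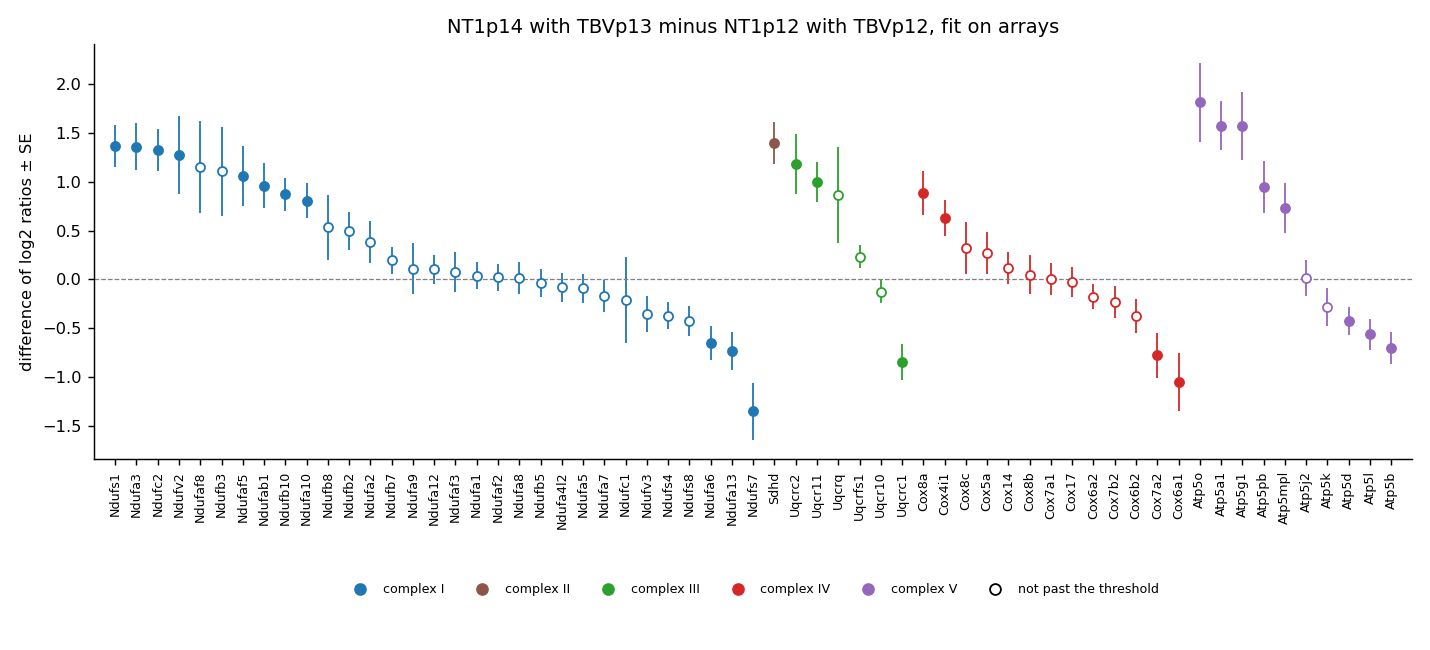
Difference of log2 ratios, NT1p14 with TBVp13 minus NT1p12 with TBVp12 (vertical axis, ± SE from the fit on 13 arrays), for the 61 genes tested, ordered within each complex. Filled points passed the threshold; complexes I, III, IV and V each hold filled points above and below 0, 18 above and 9 below in all.

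In complex I, 8 of 31 genes were higher in the first pair and 3 lower, where 16.5% and 15.7% of all genes were. The core subunits did not move together. Ndufs1, the largest subunit of the electron-input arm, read 0, 1, 0, 1 and 0 in NT1p14 with TBVp13 and -1 on all 4 arrays of NT1p12 with TBVp12. The arrays did not overlap, and each of these values is a whole number. The difference was 1.37 ± 0.22 (SE; limma, adjusted p = 0.0052). Ndufv2, an iron-sulphur subunit of the same arm, differed by 1.27 ± 0.40 (adjusted p = 0.031), with 0, 0, 0, 1 and 2 in the first pair and -0.85, -1, 0.33 and -1 in the second.

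Ndufs7, the subunit beside the quinone site, went the other way. Its arrays read 0.08, -0.57, -0.87, -1 and -2 in NT1p14 with TBVp13 and 0.95, 0.60, -0.23 and 0.36 in NT1p12 with TBVp12. Only array 1 of the first pair and array 3 of the second crossed the other group, and the difference was -1.35 ± 0.29 (adjusted p = 0.010). Ndufs8, another iron-sulphur subunit of that region, stood at -0.42 ± 0.15 (adjusted p = 0.053). Ndufv1, the NADH-binding subunit, had values on 5 arrays and entered no test.

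Among the accessory subunits of complex I, Ndufa3 was higher by 1.36 ± 0.24 (adjusted p = 0.0061). Its arrays read 0.03, 0.75, 0.49, 1 and 1 against -0.92, -0.50, -0.54 and -0.79, with no overlap. Ndufc2 was higher by 1.32, Ndufab1, the mitochondrial acyl carrier protein, by 0.96, Ndufb10 by 0.87 and Ndufa10 by 0.81. Ndufa13 and Ndufa6 were lower, at -0.73 ± 0.19 and -0.65 ± 0.17 (adjusted p = 0.018 for both). Ndufa10 and Ndufb10 turned to -0.10 and -0.04 when centred on ribosomal protein genes. The assembly factor Ndufaf5, described below, was the eighth gene called higher. The other 20 genes tested in complex I did not pass the threshold, and their differences ran from -0.42 to 1.15.

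Complex II was represented by Sdhd in this test. Its arrays read 0.20, 1, 1, 1 and 1 in NT1p14 with TBVp13 and -0.79, -0.57, -0.10 and -0.73 in NT1p12 with TBVp12. The groups did not overlap, and the difference was 1.40 ± 0.21 (adjusted p = 0.0052). Sdhb, the iron-sulphur subunit, read -0.21, -0.88 and -1 on 3 arrays of NT1p14 with TBVp13, all with NT1 in Cy5, so that pair had no value free of the dye. It gave 0.52 in the second pair and -0.45 for NT1 1 with TBV2.

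In complex III the 2 core proteins, which form a pair facing the matrix, differed in direction. Uqcrc2 read -0.065, 0.45, 0.76, 1 and 2 in NT1p14 with TBVp13, against -0.66, -0.70, 0.52 and -0.35 in NT1p12 with TBVp12. Uqcrc1 read -0.02, -0.49, -0.55, -0.62 and -1, against 0.66, 0.30, -0.02 and 0.22. For both genes the groups crossed at array 3 of the second pair, and the differences were 1.19 ± 0.31 (adjusted p = 0.017) for Uqcrc2 and -0.85 ± 0.18 (adjusted p = 0.010) for Uqcrc1. Uqcr11, a small subunit, was higher by 1.00 ± 0.21 (adjusted p = 0.0091). The Rieske protein Uqcrfs1, which passes electrons to cytochrome c1, stood at 0.23 ± 0.12 (adjusted p = 0.14). Uqcrh, the hinge protein, stood at 1.37, -0.12 and 0.03 in the 3 pairs and was not in the test on arrays.

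Complex IV had 2 genes higher and 2 lower among 13, close to the 16.5% and 15.7% of all genes. Cox4i1, the ubiquitous form of the subunit at which ATP regulates the enzyme, was higher by 0.63 ± 0.18 (adjusted p = 0.025). Its second probe, without a value on 1 array, differed by 0.56. That probe read 0.16, -0.51, 0.91, -2 and 2 in NT1p14 with TBVp13, with mixed signs, so its difference is uncertain. Cox8a, the ubiquitous form of subunit VIII, was higher by 0.89 ± 0.23 (adjusted p = 0.016). Its arrays read -0.08, 0.19, 0.15, 0.95 and 0.35 in NT1p14 with TBVp13 and -0.93, -0.65, 0.01 and -0.70 in NT1p12 with TBVp12, and the groups crossed at array 3 of the second pair. Centred on ribosomal protein genes, Cox4i1 turned to -0.28 and Cox8a to -0.02. Cox5a, higher in NT1 within the first pair at 0.64 ± 0.14 (SE, adjusted p = 0.016), stood at 0.27 ± 0.22 in the difference (adjusted p = 0.34).

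Cox6a1 and Cox7a2, the forms of subunits VIa and VIIa found in most tissues, were lower. Cox6a1 read 0.105, -0.37, -0.62, -0.77 and -2 in NT1p14 with TBVp13 and 0.51, 0.21, 0.14 and 0.27 in NT1p12 with TBVp12. The groups did not overlap, and the difference was -1.05 ± 0.30 (adjusted p = 0.022). Cox7a2 was lower by 0.78 on the log2 scale (-0.78 ± 0.23, adjusted p = 0.025), also without overlap. The heart and skeletal muscle forms Cox6a2, Cox7a1 and Cox8b stood at -0.18, 0.01 and 0.05, and the forms known from testis, Cox6b2, Cox7b2 and Cox8c, at -0.37, -0.23 and 0.32, with none past the threshold. In the 3 pairs these 6 isoforms lay between -0.20 and 0.28. Cox6b1, which faces the intermembrane space, was at 0.83, -0.50 and -0.06 in the 3 pairs from almost only whole numbers.

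In complex V, 5 of 10 genes were higher and 3 lower, where 16.5% and 15.7% of all genes were. The catalytic head of the ATP synthase is built of alternating alpha and beta subunits, and their genes, Atp5a1 and Atp5b, stood on opposite sides. Atp5b read -0.22, -0.20, -0.44, -0.18 and -1 in NT1p14 with TBVp13 and 0.21, 0.53, -0.05 and 0.39 in NT1p12 with TBVp12, with no overlap and a difference of -0.70 ± 0.16 (adjusted p = 0.013). One Atp5a1 probe read 0, 1, 1, 1 and 1 against -1, -1, 0 and -1, a difference of 1.58 ± 0.25 (adjusted p = 0.0052). A second Atp5a1 probe, with no value on 1 array, gave pair values of 0.01 and 0.07, so the direction of this gene is uncertain.

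The other calls in complex V divided as well. Atp5g1, which encodes the c subunit of the proton-carrying ring, read 0, 1, 0, 2 and 1 against -0.87, -0.75, -0.56 and -1, with no overlap and a difference of 1.57 ± 0.34 (adjusted p = 0.010). Atp5o and Atp5pb, parts of the peripheral stalk that holds the head still, were higher by 1.81 ± 0.40 and 0.95 ± 0.27 (adjusted p = 0.011 and 0.022). The Atp5o probe tested read whole numbers on these 9 arrays, and a second probe had a value on 1 of the 5 arrays of NT1p14 with TBVp13. Atp5mpl, a small subunit of the membrane part, was higher by 0.73 ± 0.26 (adjusted p = 0.048), but its second probe differed by -0.31. The delta subunit Atp5d, at -0.42 ± 0.14 (adjusted p = 0.040), and the membrane subunit Atp5l, at -0.56 ± 0.16 (adjusted p = 0.022), were lower. Atp5c1, the central stalk, read 0.00, 0.25 and -0.27 in the 3 pairs and was not in the test on arrays.

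**Figure D5:**
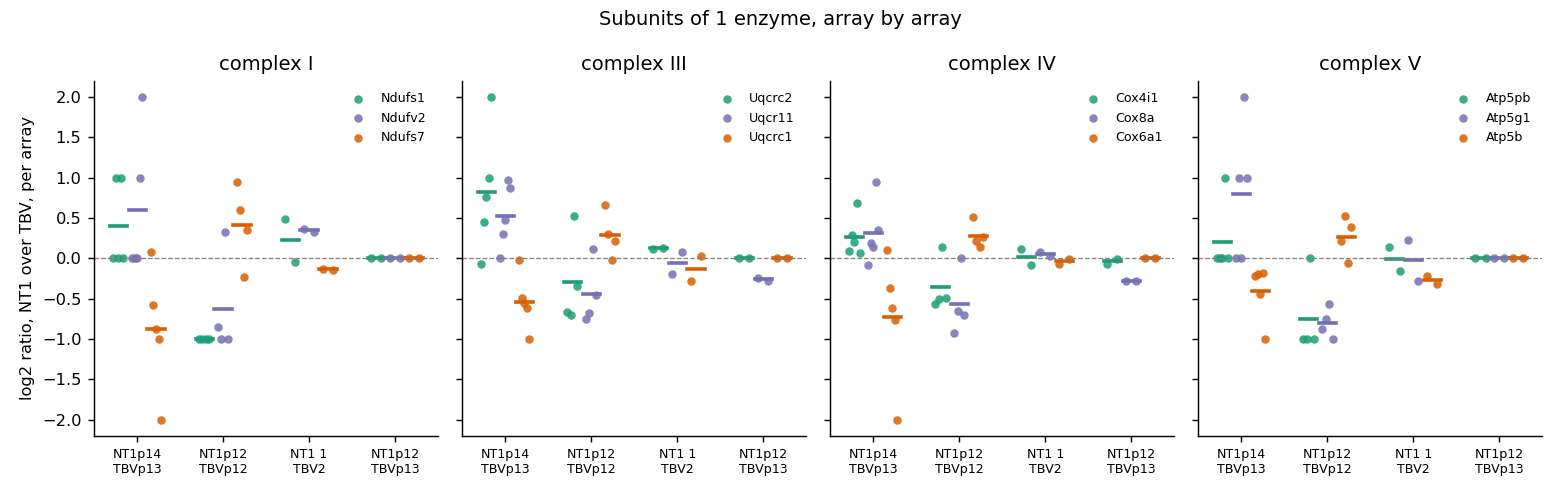
Log2 ratio of NT1 over TBV on each array (points) and the mean over arrays (bars) for 3 subunits of complexes I, III, IV and V, by source pair, from probes with a value on all 13 arrays. In each panel 2 subunits that were higher in NT1p14 with TBVp13 than in NT1p12 with TBVp12 are set beside 1 that was lower; they were chosen after their values were seen.

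The assembly factors, which build the complexes and do not stay in them, were set beside the structural subunits. Over 12 factors with 3 pair values the difference of the 2 pairs was above 0 for 11 and below 0 for 1, with a median of 0.40. Over 67 structural subunits it was above 0 for 41 and below 0 for 25, with a median of 0.21, and over all genes it was above 0 for 4144 of 7968, with a median of 0.03. After turning NT1p14 with TBVp13, 5 factors were above 0 and 7 below, with a median of -0.14, and subunits were above 0 for 34 and below for 32. Of the 6 factors in the fit on arrays 1 was called, Ndufaf5, a methyltransferase that modifies a complex I subunit, at 1.06 ± 0.31 (adjusted p = 0.024). Its arrays read 0, 0, 0, 1 and 1 against -0.84, -1, 0.31 and -1. Cox20, which stabilises the mitochondrially encoded subunit COX2, had the widest pair values among the factors, 1.25 and -1, with 8 of its 10 values whole numbers.

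Genes that work beside the respiratory chain gave a mixed picture in the same test, where 16.5% of all genes were higher and 15.7% lower. Of 7 citric acid cycle genes 4 were higher, among them Fh1 (fumarate hydratase, 1.15) and Idh3b (0.71), and 1 was lower, Dlst at -0.78. Outside this test, Suclg1 stood at -0.40 in the first pair and 0.32 in the second, and Idh3a at -0.10 and -0.19. All 4 carrier and channel genes tested were higher: the adenine nucleotide carrier Slc25a4 by 0.81 and the porins Vdac1, Vdac2 and Vdac3 by 1.33, 0.98 and 1.42. Another carrier of that list, Slc25a5, was not in this test and went the other way, at -0.21 in the first pair and 0.23 in the second. Of 5 regulators of mitochondrial gene expression Tfam was higher (0.67) and the coactivator Ppargc1b lower (-0.75). Of 6 other assembly factors 0 were higher and Coa3 was lower (-0.44), and Cycs, cytochrome c, was higher by 1.01. Cytosolic ribosomal protein genes had 22 of 34 higher and 1 lower.

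Marker lists of cell types were read in the same comparison, where 16.5% of all genes were higher and 15.7% lower. Of 10 fibroblast markers tested 7 were higher and 0 lower, and the list's median was 0.79 in the first pair, -0.45 in the second and -0.62 for NT1 1 with TBV2. Within the first pair the 7 were also higher in NT1, where 13.1% of all genes were. Of 11 pluripotent cell markers 4 were higher in the difference and 0 lower, and the list median was -0.25, -0.51 and -0.21. Within the pairs they ran lower in NT1: 5 were lower and 1 higher in the first pair, and 4 were lower and 0 higher in the second (Esrrb, Fgf4, Pou5f1 and Zfp42). Of all genes 12.8% were lower in the first pair and 1.53% in the second. Of 5 muscle markers 1 was higher, Actc1. No list here or among the genes beside the respiratory chain was read with the signs of the first pair turned. All these list differences therefore stand only if the labelled direction of both pairs holds. The part of cell mixture in the oxidative phosphorylation differences was not tested, and a ratio in bulk RNA cannot tell fewer cells of a type from less RNA per cell.

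The dye coefficient was called for 2 of 61 members, Ndufa5 at 0.23 and Uqcr10 at 0.17 of Cy5 over Cy3 (adjusted p = 0.042 and 0.048), or 3.28%, where 3.61% of all genes were higher in Cy5. In Cy3 0 members were higher, where 4.89% of all genes were. Neither gene was called in any source pair, and the count was 0 or 1 when any 1 array was left out.

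Promoter sequences were a feature that the choice of genes did not use. RefSeq promoters (build GRCm38.p6, 250 bases before to 50 after the start) were matched by gene ID for 72 of the 88 genes. The binding motif of NRF1, a transcription factor known for regulating respiratory chain genes, was searched as GCGCANGCG, that of the ETS factor GABPA as CCGGAAGT and that of YY1 as AAGATGGCG, on both strands, with overlaps of a motif counted once per promoter. The NRF1 motif lay in 17 of 72 member promoters (23.6%), against 8.83% of 17492 protein-coding and 6.47% of all 27025 promoters. The YY1 motif lay in 8 (11.1%), against 1.94% and 1.49%, and the ETS motif in 5 (6.94%), against 5.29% and 4.0%. The median GC content was 57.8% in members, 56.3% in protein-coding and 52.7% in all promoters.

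Motif matches were found on both sides of the difference between the 2 pairs. Any of the 3 motifs was present in 6 of 13 promoters of genes called higher and in 5 of 9 of genes called lower, against 27 of all 72 members (37.5%), 14.8% of protein-coding promoters and 2983 of all 27025. The 250 bases before the start, with NRF1 matches in capitals, are shown for a gene called higher (Sdhd), a gene called lower (Cox6a1) and 2 genes above 0 in all 3 pairs, Ndufb4 with 3 matches and Cox5a with none of the 3 motifs. All are given 5′ to 3′ on the strand of the gene: Sdhd at chr9:50603850-50604099 (minus strand), Cox6a1 at chr5:115348959-115349208 (minus strand), Ndufb4 at chr16:37654369-37654618 (minus strand) and Cox5a at chr9:57520982-57521231 (plus strand).
Sdhd: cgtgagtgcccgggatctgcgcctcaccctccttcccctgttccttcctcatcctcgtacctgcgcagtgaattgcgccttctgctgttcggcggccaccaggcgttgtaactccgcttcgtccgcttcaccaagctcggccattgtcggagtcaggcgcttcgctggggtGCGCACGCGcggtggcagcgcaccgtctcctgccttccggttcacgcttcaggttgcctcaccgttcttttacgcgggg
Cox6a1: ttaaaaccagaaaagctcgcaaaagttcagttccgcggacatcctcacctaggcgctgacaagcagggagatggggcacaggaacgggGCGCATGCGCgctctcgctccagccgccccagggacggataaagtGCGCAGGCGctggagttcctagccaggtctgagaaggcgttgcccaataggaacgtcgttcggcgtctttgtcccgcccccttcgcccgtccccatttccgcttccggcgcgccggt
Ndufb4: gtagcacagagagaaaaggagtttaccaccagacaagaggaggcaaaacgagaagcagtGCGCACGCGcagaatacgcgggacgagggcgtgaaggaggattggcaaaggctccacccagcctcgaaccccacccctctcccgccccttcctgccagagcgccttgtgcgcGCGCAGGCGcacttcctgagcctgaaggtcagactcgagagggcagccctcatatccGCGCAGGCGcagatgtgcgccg
Cox5a: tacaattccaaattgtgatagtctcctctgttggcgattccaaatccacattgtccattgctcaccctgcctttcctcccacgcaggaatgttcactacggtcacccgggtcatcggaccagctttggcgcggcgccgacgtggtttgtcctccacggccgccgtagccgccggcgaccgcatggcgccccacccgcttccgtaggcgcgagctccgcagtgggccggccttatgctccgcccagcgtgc

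The YY1 motif lay in a narrow window. All 8 matches in member promoters lay on the strand of the gene and after the start, beginning between base 11 and base 36 of the transcript. Of the 353 matches in protein-coding promoters 188 (53.3%) lay on that strand after the start. Stretches of 30 bases around the motif, in capitals, are shown for the 4 such genes described here: Ndufs7, called lower, at chr10:80249463-80249492 (plus strand), and Ndufa9 at chr6:126849096-126849125, Ndufc1 at chr3:51408914-51408943 and Ndufs4 at chr13:114388045-114388074 (minus strand), which were above 0 in all 3 pairs. The lowest of these pair values was only 0.0004 for Ndufa9 and 0.0001 for Ndufs4. For Uqcrc1, called lower, and Atp5o, called higher, the first NRF1 match after the start is shown in the same way and reads on the opposite strand, at chr9:108936644-108936673 (plus strand) and chr16:91931601-91931630 (minus strand).
Ndufs7: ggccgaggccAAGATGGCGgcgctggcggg
Ndufa9: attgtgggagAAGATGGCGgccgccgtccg
Ndufc1: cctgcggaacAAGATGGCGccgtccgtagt
Ndufs4: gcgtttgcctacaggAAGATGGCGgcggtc
Uqcrc1: ttccttacagCGCTTGCGCctcagactccg
Atp5o: ctggcgcgcgCGCGTGCGCtctggcgccag
A match describes the letters of these windows and does not show that a factor binds there.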

How the data were processed

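RNA of NT1 and TBV sources was compared on 13 2-colour arrays. The deposited values were taken as log2 ratios of Cy5 over Cy3. The base, the numerator, the background correction and the normalization are not given in the sources used here. Of 19859 deposited values of size 1 or more 79 had decimals. In the file's column order 70.9% of a probe's values after its first one of that size were whole numbers, against 2.69% before it. Scanner intensities were not used here, so signal over background is unknown.

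Each array was centred on its median, arrays with TBV in Cy5 were multiplied by -1, and probes of a gene were averaged. A pair value is the mean of both dye orientations, in which a dye effect cancels. Between 14314 and 18381 probes had a value per array. The fits in limma 3.58.1 (R 4.3.3) were adjusted by Benjamini-Hochberg over all genes, with a threshold of 0.05. One tested the 3 pair values against 0. The other used 13 arrays and probes with a value on all of them, with source pairs and dye as terms. Its error is the spread between repeat hybridisations. Both were tested on simulated data.

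The members and lists were chosen with earlier results of these data known. Genes named were core subunits, tissue isoforms, the extremes of each complex, those with 1 sign in all pairs, and others marked in the text as chosen after their values were seen. Alternatives were no centring, centring on ribosomal protein genes, scaled arrays, single dye orientations, probes without whole numbers, 4 pairs, turned signs (added after seeing the data) and leaving out arrays or pairs.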

Additional observations from a re-analysis of the deposited data

Results flagged for a closer look

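In 68 groups of 4 or 5 arrays of 1 source pair, 8 held an array far from the others, where chance gives about 1 in 20 groups. In NT1p14 with TBVp13, Cox6a2 read 0.22 on array 1 with the others between -0.19 and -0.15, and Cox7a2l read -0.59 on array 5 with the others between -0.02 and 0.21. Sdhd read 0.20 on array 1 with the others at 1, and Cox6b1 read 0 on array 4 with the others at 1. Cox8c on array 5 and Ndufb8 on array 4 read 1 with the others at 0. In NT1p12 with TBVp12, Cox6b1 read 1 on array 3 with the others at -1, and Ndufv2 read 0.33 on array 3 with the others between -1 and -0.85. Several of these are whole numbers, for which a step of 1 is the smallest one recorded.

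Between the pairs NT1p14 with TBVp13 (the first) and NT1p12 with TBVp12 the log2 ratio of NT1 over TBV differed for 14 genes among those the naming rule gives (limma, test of the difference). It was higher in the first pair for Ndufs1 (1.37), Ndufa3 (1.36), Ndufv2 (1.27), Sdhd (1.40), Uqcrc2 (1.19), Cox8a (0.89), Cox4i1 (0.63), Atp5o (1.81) and Atp5a1 (1.58). It was lower for Ndufs7 (-1.35), Cox6a1 (-1.05), Uqcrc1 (-0.85), Cox7a2 (-0.78) and Atp5b (-0.70). The Atp5a1 value came from 1 probe, and its other probe differed by -0.06. Cox4i1 and Cox8a fell below 0 when centred on ribosomal protein genes. With the signs of the first pair turned 0 of the 61 members tested passed the threshold. The naming rule takes in the highest and the lowest of the unturned difference in each complex. Ndufa3, Ndufs7, Cox6a1, Sdhd and Uqcrc1 were named at least partly in that way, so their place in this list is no separate support.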

How the results depend on the processing

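The count of 0 members past the threshold over 3 pairs was 0 under every alternative run. The members' median of 3-pair means moved by less than its spread, the SD of the 3 pair medians, in 26 alternatives. The 5 complex medians also moved by less than their spread, in 8 alternatives each (7 for complex II). For the complexes, scaled arrays, centring on ribosomal protein genes and leaving out single arrays were not run. The count of 8 genes with 1 sign in all 3 pairs was 4 over 4 pairs, 18 with TBV in Cy5 only, 25 after turning the signs of NT1p14 with TBVp13, 4 of 61 with probes measured on all arrays, 5 of 42 with probes without a whole number, and 21 to 40 when 1 pair was left out, where fewer signs must match. With scaled arrays the members called were 2 of 61 for NT1p14 with TBVp13, 10 for NT1p12 with TBVp13 and 17 in the difference of the 2 largest pairs. With probes without a whole number they were 5, 2 (NT1p12 with TBVp12), 10 (the difference) and 4 (the dye) of 33 genes. With turned signs the difference gave 0. The shares of all genes under these alternatives are not given here, so the counts show only how the main counts moved. When 1 array was left out, the count was 1 to 23 in NT1p14 with TBVp13, 0 to 8 in NT1p12 with TBVp12, 13 to 30 in the difference and 0 to 1 for the dye. NT1p12 with TBVp12 gave 6, 8 and 7 without array 1 or 4 of the other pair or its own array 3, and 0 without its array 1, 2 or 4. Of single genes, the mean of Cox7a2l was 0.060 and of Ndufa9 -0.30 with NT1 in Cy5 only. With turned signs Ndufa9 was -0.028 and Ndufb4 -0.073, and without an array of NT1 1 with TBV2 Ndufa9 ran from -0.0004 to 0.137. Centred on ribosomal protein genes, Ndufs4 was -0.036, and the differences of Atp5mpl, Cox4i1, Cox8a, Ndufa10 and Ndufb10 were -0.18, -0.28, -0.023, -0.10 and -0.041. For the changes other than those from fewer genes or turned signs the cause was not tested. No paired analysis was possible because the replicate numbers only name arrays within a source pair; each array already pairs both sources.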
